A study of Mus musculus with 12 samples.

Results

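The 10 genes described here encode enzymes that make serine, asparagine and proline and that run the mitochondrial folate pathway: Phgdh, Psat1, Psph, Shmt2, Mthfd2, Mthfd1l, Aldh1l2, Asns, Aldh18a1 and Pycr1. They were found by gene symbol among the 25923 genes listed for the overexpression experiment and the 24509 listed for the knockdown experiment, and all 10 were listed in both. The group was selected on the fold changes of Asns and Mthfd2, which were higher in both experiments, so these 2 genes are given as a description without a test. The measurements were RNA sequencing counts from 12 libraries of primary astrocytes, the glial cells that feed and support neurons, taken from the cortex of wild-type C57BL/6J mice at postnatal day 3. The cells were grown in 10% serum, transduced, and then kept for 1 week in the serum-free medium named C2, which applies to every group. For overexpression, 3 libraries carried the label GADD45G and 3 the label GFP, both after viral transduction. For knockdown, 3 carried the label shGADD45G, a short hairpin RNA against endogenous Gadd45g, and 3 the control label shLuc. The promoter, the species of the introduced sequence and the number of hairpins were not stated in the sources used here. Whether replicates were separate cultures is not in the labels either, so a p-value here reflects only how these libraries vary, which could be technical variation.

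As background, serine is made from a glycolytic intermediate in a short chain of reactions, and in the brain this chain runs mainly in astrocytes, which supply serine to neurons. Serine gives up a carbon unit to folate when it is converted to glycine, and mitochondrial enzymes then oxidise that unit to formate for use in purine and thymidylate synthesis outside the mitochondrion. Asparagine is made from aspartate and proline from glutamate. In mammalian cells many of the genes for these enzymes are known targets of ATF4, the transcription factor of the integrated stress response, which binds DNA as a dimer with C/EBP or other partners.

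Total counts ran from 15626655 to 20756461 per library. Levels are given as CPM, reads of a gene per library total of fixed size, scaled with trimmed-mean (TMM) factors within each experiment, always for libraries 1, 2 and 3 in that order. Gadd45g itself had 150, 144 and 139 CPM in GADD45G-labelled libraries, against 121, 133 and 134 CPM in GFP libraries. The log2 difference was 0.15, with p = 0.1 in an exact two-sided permutation test, which is the smallest p that 3 libraries against 3 allow. The edgeR test used for the other genes gave an adjusted p of 0.0298. This passed 0.05 but did not without GADD45G replicate 1 (0.137), without any 1 of the GFP replicates (0.0658, 0.0753 and 0.0671), with a block for the replicate number (0.0532) or without a filter on low counts (0.0877). Gadd45g had 67.2, 147 and 122 CPM in shGADD45G-labelled libraries, against 140, 151 and 129 CPM in shLuc libraries (log2 difference -0.32, exact permutation p = 0.3, edgeR adjusted p = 0.408). That difference was -0.05 without shGADD45G replicate 1 and -0.57 without shGADD45G replicate 2. The mouse transcript was thus only slightly higher under the GADD45G label, and of the shGADD45G-labelled libraries 1 lay within the shLuc range, 2 below it, so the groups are named by their labels throughout. Replicates of shGADD45G differed more from each other, with a chi-square per degree of freedom of 20.5 to 41, than replicates of shLuc, with 2.23 to 2.98. GADD45G-labelled library 3 stood apart from libraries 1 and 2, since 5 lung epithelium markers summed to 1350 CPM in it and to at most 0.163 CPM in the others. Sums of other markers were also uneven among the GADD45G-labelled libraries. Erythroid markers ran from 0 to 364 CPM (median 0), microglia and macrophage markers from 16 to 202 CPM (median 19.5). Endothelial markers ran from 13.8 to 70.2 CPM (median 13.8), fibroblast and mural markers from 434 to 646 CPM (median 446). Astrocyte markers, 9 genes in all, summed to 4160 to 4730 CPM under GADD45G and 3650 to 3700 CPM under GFP. Of these, 7 were called higher and 1 lower at an adjusted p under 0.05 in edgeR. Gfap averaged 1190 CPM under GADD45G and 227 CPM under GFP, whereas Aldoc averaged 320 and 1480 CPM. The same 9 genes summed to 3670 to 4180 CPM under shGADD45G and 5180 to 5230 CPM under shLuc.

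The promoter windows of 4 members are printed because they show windows that hold the motifs searched for and a window that does not. A window without a match does not show that the gene lacks the motif elsewhere. Each is the 250 bases before the RefSeq transcription start on GRCm38.p6, read 5′ to 3′ on the gene's strand, with motif matches in capitals. The motifs were TGATGNAA, the core of the C/EBP-ATF response element, and CACGTG, the E-box bound by MYC and related factors, each searched on both strands in windows that also took in 50 bases after the start.
Asns (chr6:7693210-7693459, minus strand): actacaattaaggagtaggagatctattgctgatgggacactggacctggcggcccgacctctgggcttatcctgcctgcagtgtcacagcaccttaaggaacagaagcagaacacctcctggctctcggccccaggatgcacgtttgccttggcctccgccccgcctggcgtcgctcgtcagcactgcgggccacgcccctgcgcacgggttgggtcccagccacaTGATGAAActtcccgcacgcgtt
Pycr1 (chr11:120643749-120643998, minus strand): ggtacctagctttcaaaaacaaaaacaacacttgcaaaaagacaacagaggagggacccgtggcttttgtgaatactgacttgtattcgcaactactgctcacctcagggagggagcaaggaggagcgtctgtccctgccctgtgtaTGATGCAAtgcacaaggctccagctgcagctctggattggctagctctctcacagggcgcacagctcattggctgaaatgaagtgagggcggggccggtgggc
Aldh18a1 (chr19:40588464-40588713, minus strand): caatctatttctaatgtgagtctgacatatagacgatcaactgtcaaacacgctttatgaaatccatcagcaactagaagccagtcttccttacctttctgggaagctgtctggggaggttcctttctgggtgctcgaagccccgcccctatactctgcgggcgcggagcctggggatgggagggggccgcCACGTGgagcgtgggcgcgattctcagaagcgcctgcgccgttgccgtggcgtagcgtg
Mthfd2 (chr6:83317605-83317854, minus strand): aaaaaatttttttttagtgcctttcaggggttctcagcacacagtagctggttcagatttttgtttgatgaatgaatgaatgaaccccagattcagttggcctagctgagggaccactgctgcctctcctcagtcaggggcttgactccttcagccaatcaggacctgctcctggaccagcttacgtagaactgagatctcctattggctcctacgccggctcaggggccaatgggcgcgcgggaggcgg
TGATGNAA lay 23 bases before the start of Asns and 103 bases before that of Pycr1. CACGTG lay 59 bases before the start of Aldh18a1. The Mthfd2 window held neither motif, and the other members with a window also had no match. Of the 10 member windows, which cover 9 members because Psat1 has more than 1, TGATGNAA was in 2 and CACGTG in 1. Over all 32851 promoter windows of this length the shares were 3.97% and 7.15%. The deposited annotation places the Asns gene at chr6:7675169-7693254, Mthfd2 at chr6:83305691-83325908 and Pycr1 at chr11:120635712-120643769. The Asns and Pycr1 windows thus reach into the deposited bounds of their genes. The TGATGNAA match of Asns lies inside those bounds, downstream of the deposited 5′ end, and that of Pycr1 lies outside them. The Mthfd2 window lies wholly inside the deposited gene, downstream of its 5′ end there. That annotation has Aldh18a1 at chr19:40550257-40588463, all 4 genes on the minus strand. The Psat1 windows (chr19:15924623-15924872 and chr19:15925060-15925309) also lie wholly inside their deposited gene, chr19:15904678-15947337 on the minus strand. For Mthfd2 and Psat1 the sequence before the deposited 5′ end was thus not searched.

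In the overexpression experiment most of these enzymes were higher under GADD45G, with the largest differences for Mthfd2, Pycr1 and Asns, while Phgdh, at the head of the serine chain, was lower. Of the 8 members other than Asns and Mthfd2, 6 were called higher, 1 was called lower and 1 did not pass, at an adjusted p under 0.05 in edgeR's quasi-likelihood test. In this comparison 60.3% of 15418 tested genes were called, 30.6% higher and 29.7% lower. All 10 members passed the filter on low counts in both experiments.

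Phgdh, which oxidises phosphoglycerate in the committed step of serine synthesis, is encoded at chr3:98313170-98339990 on the minus strand. It had 95.7, 104 and 87 CPM in GADD45G-labelled libraries, against 124, 118 and 122 CPM in GFP libraries. Every GADD45G-labelled library lay below every GFP library, with library 3 the lowest. Phgdh was the only member called lower (log2 fold change -0.34, SE 0.06, adjusted p = 0.000857), and without that library the fold change was -0.27. Psat1, the aminotransferase of the next step, at chr19:15904678-15947337, had 313, 303 and 272 CPM in GADD45G-labelled libraries, against 258, 258 and 262 CPM in GFP libraries. The groups did not overlap, but library 3 of GADD45G came close to the GFP range. Psat1 rose by a small margin (0.19, SE 0.05, adjusted p = 0.011), a call that was lost when GFP replicate 2 was left out (0.15, adjusted p = 0.0536).

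Psph, the phosphatase that releases free serine, at chr5:129765558-129787449 on the minus strand, had the largest fold change of the serine chain. It had 44, 41.8 and 44.3 CPM in GADD45G-labelled libraries, against 20.7, 22.5 and 22.9 CPM in GFP libraries. The replicates of each label were close together and far from the other label, and Psph rose (0.98, SE 0.06, adjusted p = 1.88e-07). Its exons overlap those of Cct6a on the opposite strand. The library kit marks strand per the labels, but how strand was set in counting was not stated, so reads of overlapping genes may not be separable.

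Shmt2 converts serine to glycine in mitochondria and loads the carbon unit onto folate. The gene, at chr10:127517123-127522444 on the minus strand, had 56.5, 49.7 and 52.4 CPM in GADD45G-labelled libraries, against 35.6, 38.1 and 37 CPM in GFP libraries. No GADD45G-labelled library came near the GFP range, and Shmt2 rose (0.52, SE 0.06, adjusted p = 1.76e-05). Its exons overlap Ndufa4l2 on the other strand. Mthfd2, the mitochondrial dehydrogenase and cyclohydrolase that oxidises the folate-bound unit, is known for high expression in embryonic and dividing cells. It had 45.5, 46.8 and 39.6 CPM in GADD45G-labelled libraries, against 6.45, 6.65 and 6.16 CPM in GFP libraries. With a log2 difference of 2.78 it differed most of the 10 members, which is part of why the group was chosen.

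Mthfd1l, which releases formate in mitochondria, is the only member on the plus strand, at chr10:3973118-4167081. It had 15.8, 14 and 14.2 CPM in GADD45G-labelled libraries, against 7.52, 6.55 and 5.81 CPM in GFP libraries. All of the GADD45G-labelled libraries were higher, and Mthfd1l rose (1.15, SE 0.12, adjusted p = 1.23e-05). Aldh1l2, which instead oxidises the unit to carbon dioxide and yields NADPH, is at chr10:83487450-83534140 on the minus strand and overlaps exons of D10Wsu102e. It had 12.8, 11.9 and 10.4 CPM in GADD45G-labelled libraries, against 9.31, 10 and 10.3 CPM in GFP libraries. The groups nearly met, with library 3 of GADD45G just above the highest GFP library, and Aldh1l2 did not pass (0.24, SE 0.11, adjusted p = 0.0879). Without GADD45G replicate 3 it did pass (0.32, adjusted p = 0.0159).

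Asns transfers the amide of glutamine to aspartate to make asparagine. It had 93.4, 89.8 and 88.8 CPM in GADD45G-labelled libraries, against 22.9, 23.1 and 24.5 CPM in GFP libraries, a log2 difference of 1.95. Replicates differed by far less than the labels did. Aldh18a1 makes the glutamate semialdehyde from which proline and ornithine arise, and had 63.1, 71.4 and 60.3 CPM in GADD45G-labelled libraries, against 33, 37.4 and 33.6 CPM in GFP libraries. The ranges were well apart, and Aldh18a1 rose (0.91, SE 0.07, adjusted p = 1e-06). Pycr1, the mitochondrial reductase of the last step to proline, had 11.1, 11.9 and 12.5 CPM in GADD45G-labelled libraries, against 2.81, 2.73 and 3.13 CPM in GFP libraries. It rose by 2.03 on the log2 scale (SE 0.14, adjusted p = 2.88e-07), the largest change among the 8 members that were tested.

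**Figure D1:**
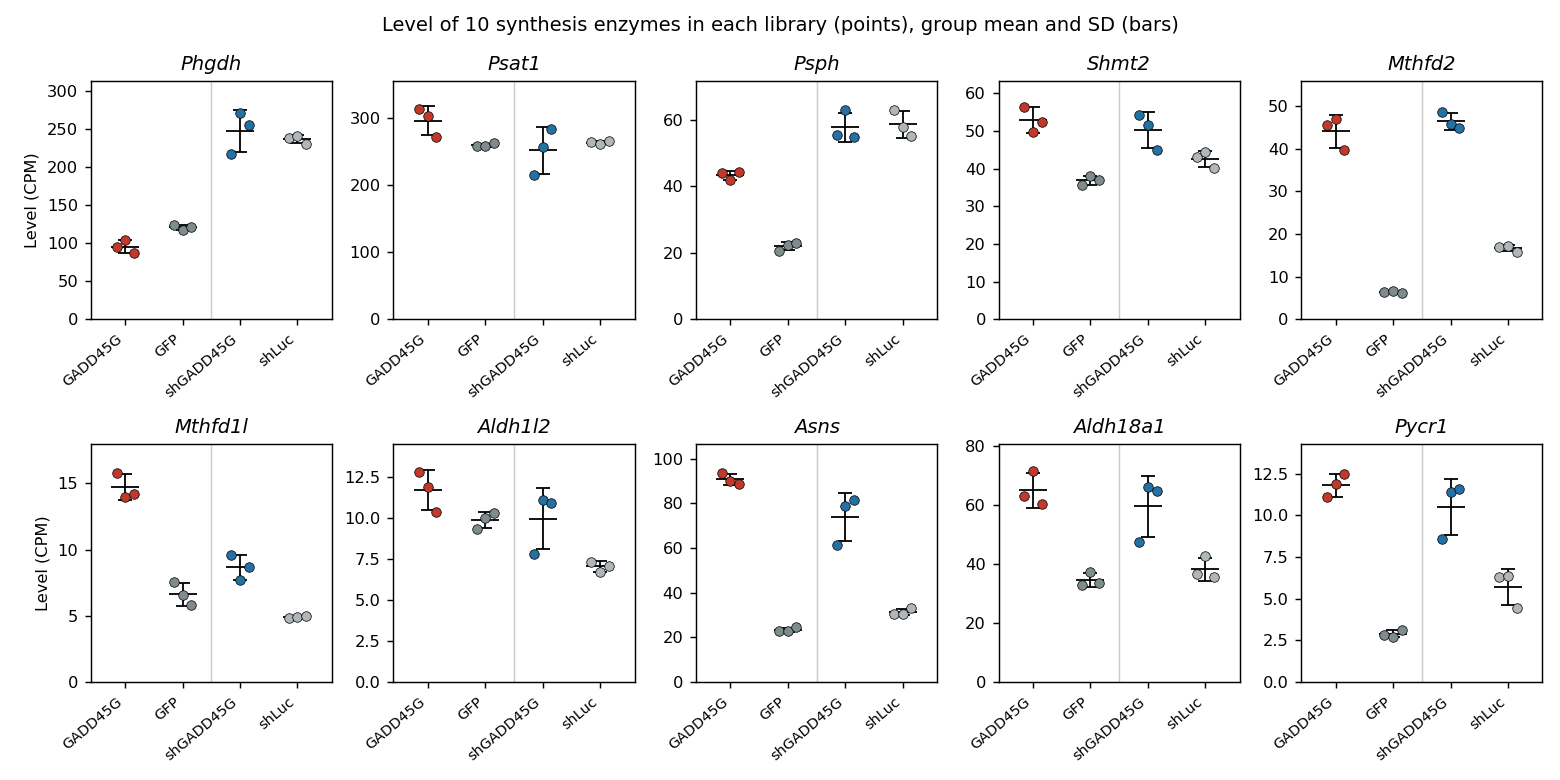
Level in CPM (vertical axes, each from 0) of each of the 10 enzymes in every library, with points for libraries and bars for the group mean and SD (n = 3), for GADD45G, GFP, shGADD45G and shLuc; each experiment was scaled separately. Mthfd2 sits between 39.6 and 46.8 CPM under GADD45G and between 6.16 and 6.65 CPM under GFP, whereas Phgdh is lower under GADD45G than under GFP.

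The groups did not overlap for any of the 8 tested members, 7 being higher and 1 lower under GADD45G. The same held higher for 33.7% and lower for 32.8% of all tested genes. The median log2 fold change of the 8 other members was 0.71, beside 0.01 over all tested genes. The authors' deposited table also called 6 of the 8 higher and 1 lower. Markers of other cells moved in the same libraries: 8 of 9 neuron markers were called lower and summed to 232 to 252 CPM under GADD45G and 480 to 503 CPM under GFP. Of 5 markers of dividing cells, 4 were called lower, at 32.6 to 45.5 CPM under GADD45G and 66.6 to 71.4 CPM under GFP, and 5 of 5 ependymal markers were called higher, at 873 to 945 CPM under GADD45G and 304 to 312 CPM under GFP. Oligodendrocyte lineage markers summed to 215 to 228 CPM under GADD45G and 830 to 836 CPM under GFP (of 8, 3 called higher and 3 lower). Endothelial markers summed to 13.8 to 70.2 against 135 to 143 CPM (of 6, 2 higher and 1 lower). Fibroblast and mural markers summed to 434 to 646 against 940 to 966 CPM (of 6, 2 higher and 2 lower). In bulk RNA, fewer cells of a type and less RNA per cell cannot be told apart, and the part of these markers in the enzymes' levels was not tested. Without GADD45G replicate 3, whose lung markers stand apart, the log2 difference was 1.97 for Asns and 2.85 for Mthfd2, and all 8 other members were called, Phgdh lower and the rest higher.

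In the knockdown experiment the enzymes of proline synthesis and the formate-releasing Mthfd1l were higher under shGADD45G, as were Asns and Mthfd2 by description. Mthfd1l, Aldh18a1 and Pycr1 were the 3 called higher of the 8 tested members, none was called lower, and the groups overlapped for all enzymes of the serine chain. Those 3 calls of 8 stand beside 10.4% of 14914 tested genes called, 5.15% higher and 5.27% lower. At an unadjusted p under 0.05 in edgeR, 5 of the 8 were higher and 0 lower, and the authors' deposited table called 3 higher and 0 lower.

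Asns had 61.4, 78.8 and 81.5 CPM in shGADD45G-labelled libraries, against 30.7, 30.7 and 33.1 CPM in shLuc libraries, a log2 difference of 1.23. Library 1 of shGADD45G was the lowest of its label and still far above shLuc. Mthfd2 had 48.6, 45.7 and 44.8 CPM in shGADD45G-labelled libraries, against 16.9, 17.2 and 15.9 CPM in shLuc libraries, a log2 difference of 1.47. For this gene the shGADD45G-labelled libraries lay close together and far above every shLuc library.

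Mthfd1l had 9.58, 7.7 and 8.71 CPM in shGADD45G-labelled libraries, against 4.82, 4.88 and 4.97 CPM in shLuc libraries (0.82, SE 0.16, adjusted p = 0.0106). Pycr1 had 8.56, 11.4 and 11.6 CPM in shGADD45G-labelled libraries, against 6.3, 6.35 and 4.46 CPM in shLuc libraries (0.88, SE 0.19, adjusted p = 0.019). Aldh18a1 had 47.6, 66.2 and 64.6 CPM in shGADD45G-labelled libraries, against 36.5, 42.6 and 35.5 CPM in shLuc libraries (0.64, SE 0.14, adjusted p = 0.016). All 3 genes rose without overlap between the groups, and for the proline genes Pycr1 and Aldh18a1 shGADD45G library 1 was the lowest of its label. Some of these calls were lost with 1 library fewer, at similar fold changes. Mthfd1l lost its call whichever shLuc replicate was left out (0.82, 0.82 and 0.84 without replicates 1, 2 and 3, adjusted p = 0.0618, 0.0651 and 0.0562), and so did Pycr1 (0.96, 0.97 and 0.73, adjusted p = 0.0618, 0.0617 and 0.0923). Aldh18a1 lost it without shLuc replicate 1 (0.61, 0.0884) or 3 (0.59, 0.0908). Without shGADD45G replicate 2, Pycr1 (0.82, 0.0615) and Aldh18a1 (0.55, 0.0577) lost theirs too.

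The other 5 members did not pass. Shmt2 had 54.2, 51.5 and 45 CPM in shGADD45G-labelled libraries, against 43.2, 44.5 and 40.2 CPM in shLuc libraries (0.24, SE 0.1, adjusted p = 0.161). Its groups did not overlap by a narrow margin, and without shGADD45G replicate 3 it passed (0.31, adjusted p = 0.0407). Aldh1l2 had 7.8, 11.1 and 10.9 CPM in shGADD45G-labelled libraries, against 7.35, 6.71 and 7.09 CPM in shLuc libraries (0.5, SE 0.17, adjusted p = 0.105). Here library 1 of shGADD45G lay next to shLuc and the other two well above it, and without that library the gene passed (0.65, adjusted p = 0.00905).

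In the serine chain the groups overlapped for every enzyme. Phgdh had 218, 272 and 255 CPM in shGADD45G-labelled libraries, against 239, 241 and 231 CPM in shLuc libraries (0.07, SE 0.09, adjusted p = 0.688). Psat1 had 215, 256 and 284 CPM in shGADD45G-labelled libraries, against 264, 261 and 265 CPM in shLuc libraries (-0.07, SE 0.1, adjusted p = 0.736). For both genes the shGADD45G-labelled libraries lay on either side of the tightly grouped shLuc libraries. Psph had 55.3, 62.8 and 54.9 CPM in shGADD45G-labelled libraries, against 63, 57.8 and 55 CPM in shLuc libraries (-0.02, SE 0.09, adjusted p = 0.912). No difference was detectable for these genes at this spread between replicates.

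Of the 8 tested members the groups did not overlap for 5, all higher under shGADD45G, beside 16.1% of tested genes higher without overlap and 16.4% lower. The median log2 fold change of the 8 other members was 0.37, beside 0.01 over all tested genes. Microglia and macrophage markers were called lower for 9 of 10 genes and summed to 17.4 to 46 CPM under shGADD45G and 153 to 180 CPM under shLuc. Of the 9 astrocyte markers 6 were called lower, with the sums given above. Their part in the enzymes' levels was not tested.

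**Figure D2:**
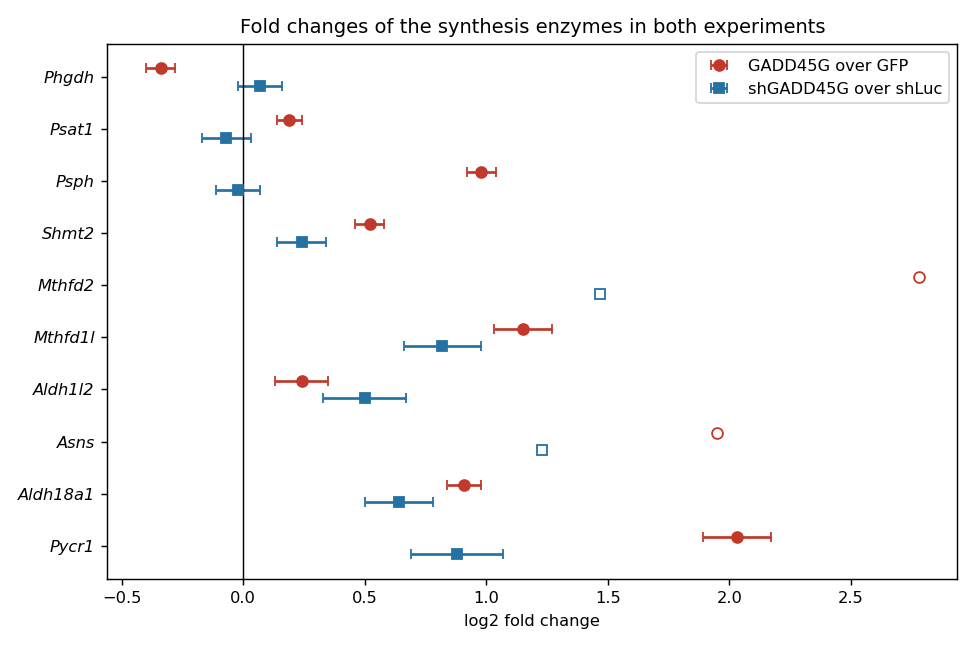
Log2 fold change (horizontal axis) of each enzyme for GADD45G over GFP (circles) and shGADD45G over shLuc (squares), with bars for the SE; open symbols are Asns and Mthfd2, which were not tested. The plot runs from -0.34 for Phgdh under GADD45G to 2.78 for Mthfd2, and the symbols of Psph, Pycr1 and Mthfd2 lie furthest apart.

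The difference between the experiments' effects was tested in 1 model over all 12 libraries, as the GADD45G over GFP change minus the shGADD45G over shLuc change. In that test 41.0% of 15900 genes passed, 20.2% with a positive and 20.7% with a negative difference. The sign does not tell which effect was the stronger, since a fall under GADD45G alone also gives a negative difference. Among the 8 members 3 passed. For Psph the effect was larger in the overexpression experiment by 0.99 on the log2 scale (SE 0.11, adjusted p = 5.94e-06), and for Pycr1 by 1.14 (SE 0.24, adjusted p = 0.00158). Phgdh differed in the other direction, with -0.42 (SE 0.11, adjusted p = 0.0091), its level being lower under GADD45G than under GFP and on both sides of the shLuc libraries under shGADD45G. The differences for Shmt2 (0.27, adjusted p = 0.073), Psat1 (0.25, 0.112), Aldh18a1 (0.26, 0.23), Mthfd1l (0.32, 0.207) and Aldh1l2 (-0.26, 0.336) did not pass. Shmt2 passed without shGADD45G replicate 1 (0.33, adjusted p = 0.0236), shGADD45G replicate 2 (0.32, 0.05) or shLuc replicate 3 (0.35, 0.0417), and Psat1 without shGADD45G replicate 3 (0.35, 0.0119). As a description, the difference was 0.71 for Asns and 1.29 for Mthfd2. Mthfd1l, Aldh18a1 and Pycr1, 3 of the 8, were called higher in both experiments, as were 2.81% of the genes tested in both.

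Levels of the 4 groups on a joint scaling of both experiments are given without a test, since the experiments have separate controls. Mthfd2 averaged 43.4 ± 3.68 CPM under GADD45G, 6.4 ± 0.254 CPM under GFP, 46.6 ± 2.06 CPM under shGADD45G and 16.8 ± 0.723 CPM under shLuc (SD, n = 3 each). The SD ranges of GADD45G and shGADD45G overlapped, while GFP lay below shLuc. Pycr1 was also lowest under GFP, with 11.7 ± 0.683 CPM under GADD45G, 2.88 ± 0.207 CPM under GFP, 10.6 ± 1.7 CPM under shGADD45G and 5.75 ± 1.1 CPM under shLuc, and its GADD45G and shGADD45G SD ranges also overlapped. Asns was highest under GADD45G, at 89.6 ± 2.43 CPM against 23.4 ± 0.852 CPM under GFP, and had 74.3 ± 10.9 CPM under shGADD45G and 31.8 ± 1.36 CPM under shLuc. Psph averaged 42.9 ± 1.48 CPM under GADD45G and 22 ± 1.15 CPM under GFP, but 58 ± 4.54 CPM under shGADD45G and 59.1 ± 4.22 CPM under shLuc. Its level under GADD45G thus remained below both groups of the knockdown experiment. Phgdh had 94.6 ± 8.32 CPM under GADD45G and 121 ± 2.68 CPM under GFP, below the 250 ± 27.5 CPM of shGADD45G and the 239 ± 5.81 CPM of shLuc.

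Per transcript length, as the FPKM values the authors deposited, Psat1 and Phgdh led in every group and Mthfd1l, Pycr1 and Aldh1l2 were the lowest. Psat1 had 68.3 ± 4.87 FPKM under GADD45G and 60.4 ± 0.441 FPKM under GFP, and Phgdh had 37.9 ± 3.4 FPKM under GADD45G and 48.4 ± 1.14 FPKM under GFP (SD, n = 3 here and below). Asns had 32.6 ± 0.856 FPKM under GADD45G, above Shmt2 with 16.7 ± 1.1 FPKM. Under GFP that order was turned round, with 8.51 ± 0.303 FPKM for Asns and 11.8 ± 0.391 FPKM for Shmt2. Asns likewise had 27 ± 3.99 FPKM under shGADD45G, above Shmt2 with 16.1 ± 1.51 FPKM, and 11.6 ± 0.498 FPKM under shLuc, below Shmt2 with 13.8 ± 0.715 FPKM. Pycr1 was the lowest member under GFP, at 0.728 ± 0.0521 FPKM, and Aldh1l2 was the lowest in the other groups, at 1.53 ± 0.155 FPKM under GADD45G. Neighbours such as Shmt2 and Aldh18a1 under GADD45G (15.7 ± 1.37 FPKM) lay within each other's spread.

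Several members have a paralog in another compartment or with overlapping activity, and the values of these stand beside them here. Mthfd2l, a mitochondrial relative of Mthfd2, fell under GADD45G (log2 fold change -0.62, SE 0.09, adjusted p = 0.000102) and did not pass under shGADD45G (-0.19, adjusted p = 0.379). The FPKM ratio of Mthfd2 to Mthfd2l was 6.99, 7.35 and 6.02 in GADD45G-labelled libraries, against 0.696, 0.671 and 0.574 in GFP libraries. It was 5.81, 5.09 and 6.33 in shGADD45G-labelled libraries, against 1.73, 1.9 and 1.75 in shLuc libraries. Under GFP, then, Mthfd2l was the more abundant of the pair per length, and in the other groups Mthfd2 was.

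Mthfd1, the cytosolic enzyme that handles the same folate intermediates, rose under GADD45G (0.63, SE 0.05, adjusted p = 4.4e-07) and did not pass under shGADD45G (-0.24, adjusted p = 0.0824). It passed there without shGADD45G replicate 1 (-0.26, adjusted p = 0.0347). The ratio of Mthfd1l to Mthfd1 was 0.0859, 0.0772 and 0.0813 in GADD45G-labelled libraries, against 0.0635, 0.0559 and 0.0511 in GFP libraries. It was 0.0419, 0.0328 and 0.0426 in shGADD45G-labelled libraries, against 0.0181, 0.0187 and 0.019 in shLuc libraries. The mitochondrial form was the far less abundant one everywhere, and its ratio was higher without overlap under each of the GADD45G and shGADD45G labels.

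Aldh1l1, the cytosolic relative of Aldh1l2 and a common astrocyte marker, did not pass under GADD45G (0.01, adjusted p = 0.886) or shGADD45G (-0.24, adjusted p = 0.156). It passed without shGADD45G replicate 1 (-0.31, adjusted p = 0.0334). Its level was 84.4 ± 6.81 FPKM under GADD45G and 84.5 ± 0.437 FPKM under GFP, far above Aldh1l2. Pycr3, the cytosolic relative of Pycr1, rose by 0.3 under GADD45G (SE 0.08, adjusted p = 0.00629) and did not pass under shGADD45G (-0.06, adjusted p = 0.847).

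Shmt1, the cytosolic partner of Shmt2, rose by 0.58 under GADD45G (adjusted p = 0.0173), a call lost without GFP replicate 2 (0.59, 0.051) or GFP replicate 3 (0.42, 0.0872). Under shGADD45G it did not pass (-0.2, adjusted p = 0.588). The ratio of Shmt2 to Shmt1 overlapped between the labels of the overexpression experiment, at 11.9, 9.34 and 11.9 under GADD45G and 9.77, 11.3 and 14.1 under GFP. In the knockdown experiment it was 11.6, 15.2 and 13.9 under shGADD45G and 8.73, 10.8 and 10.1 under shLuc, without overlap. Ratios within a library show unequal change and not which of the genes changed.

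**Figure D3:**
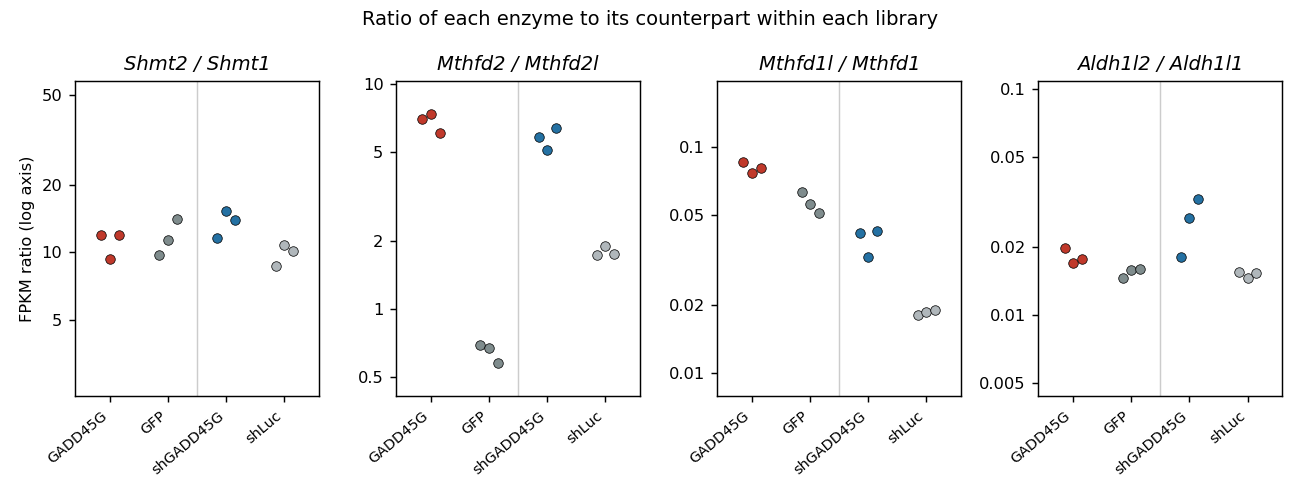
Ratio of FPKM (vertical axes, logarithmic, each spanning the same fold range) of Shmt2, Mthfd2, Mthfd1l and Aldh1l2 to their paralogs in each library, for GADD45G, GFP, shGADD45G and shLuc. The Mthfd2 to Mthfd2l ratio lies between 6.02 and 7.35 under GADD45G and between 0.574 and 0.696 under GFP, while the Shmt2 to Shmt1 ratios of these groups overlap.

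Of 30 tested genes of the wider folate and glycine list, 11 were called higher and 9 lower under GADD45G, near the 30.6% and 29.7% of all tested genes, with a median log2 fold change of -0.01. Sfxn1, a mitochondrial serine carrier, fell by 0.87 and the folate transporter Slc46a1 by 0.93 on the log2 scale. Gcsh, a subunit of the glycine cleavage system, fell by 0.6 (the largest adjusted p of these 3 was 3.42e-06). So Sfxn1 fell where Shmt2, which acts on mitochondrial serine, rose. Under shGADD45G 2 of 30 were called higher and 2 lower, near the 5.15% and 5.27% of all tested genes, with a median of -0.03. Amt, another glycine cleavage subunit, fell (-0.57, adjusted p = 0.00497), and so did Slc46a1 (-0.47, adjusted p = 0.0241), while the purine synthesis gene Atic rose (0.31, adjusted p = 0.04). Slc25a32, the mitochondrial folate carrier, had 0.48 and did not pass (adjusted p = 0.0607). It passed with DESeq2 (0.48, adjusted p = 0.0405) and, in edgeR, without shGADD45G replicate 1 (0.58, adjusted p = 0.0115). Without any 1 of the shLuc replicates the calls of Slc46a1 (adjusted p = 0.0652, 0.152 and 0.105) and Atic (0.204, 0.16 and 0.137) were lost, and that of Slc46a1 also without shGADD45G replicate 2 (0.0602). Atic also lost its call with the replicate block (0.0525), with upper quartile factors (0.0525) and without a filter on low counts (0.0566).

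In the aspartate, glutamate and proline list, 7 of 15 tested genes were called higher and 5 lower under GADD45G, beside 30.6% and 29.7% of all tested genes, with a median of 0.1. Prodh, which breaks proline down, fell by 0.97 on the log2 scale (adjusted p = 6.26e-06), opposite to the proline synthesis genes Pycr1 and Aldh18a1. The asparaginase Asrgl1 rose (0.65, adjusted p = 4.5e-07) together with the asparagine synthetase Asns, and glutamate dehydrogenase Glud1 rose as well (0.57, adjusted p = 1.09e-06). Glutamine synthetase Glul fell (-0.39, adjusted p = 1.53e-05), and so did argininosuccinate lyase Asl (-0.56, adjusted p = 2.58e-05).

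Under shGADD45G 1 gene of 16 in this list was called higher and 6 lower, beside 5.15% and 5.27% of all tested genes, with a median of -0.33. Prodh fell here too (-0.81, adjusted p = 0.00165), so in both experiments it was lower where Pycr1 and Aldh18a1 were higher. Glud1 (-0.49, adjusted p = 0.00234), Asrgl1 (-0.52, adjusted p = 0.00747) and Ass1 (-0.45, adjusted p = 0.00483) fell. Asrgl1 lost its call without shLuc replicate 1 (0.0579) or 3 (0.0531) and Ass1 without shLuc replicate 1 (0.0511).

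Methionine and transsulfuration genes, which use the carbon units and serine, had 4 of 8 called higher and 1 lower under GADD45G, with a median of 0.21. Taken in both directions this is near the 60.3% of all tested genes. Cbs, which joins serine to homocysteine, rose by 1.1 (adjusted p = 7.67e-06) and the methionine adenosyltransferase Mat2a by 0.52. Ahcy (0.46) and Mtap (0.36) rose, and Amd1 fell by 0.22 on the log2 scale. Under shGADD45G, where 5.15% of all tested genes were called higher, 2 of 8 were called higher and none lower, with a median of 0.16, namely Mat2a (0.3, adjusted p = 0.0353) and Mtap (0.3, adjusted p = 0.0468). Both calls were lost without any 1 of the shLuc replicates (adjusted p = 0.189, 0.162 and 0.144 for Mat2a and 0.141, 0.239 and 0.184 for Mtap), and with the replicate block (0.056 for Mat2a and 0.0679 for Mtap). That of Mtap was also lost without shGADD45G replicate 2 (0.0594) or 3 (0.0545), with RLE (0.051) or upper quartile factors (0.0646), and without a filter (0.078).

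Of 16 stress response factors and kinases, 13 were called higher and 1 lower under GADD45G, beside 30.6% and 29.7% of all tested genes, with a median of 1.82. Nupr1 (5.88), Trib3 (6.26), Atf3 (4.38), Atf5 (2.37) and Ppp1r15a (2.27) had the smallest p-values, the largest adjusted value being 3.8e-10. Under shGADD45G 8 of 16 were called higher and none lower, beside 5.15% and 5.27% of all tested genes, with a median of 0.37, among them Trib3 (2.4), Nupr1 (2.13), Chac1 (1.7), Atf5 (0.66) and Sesn2 (0.55), with adjusted p up to 0.00385. Atf4 itself, singled out after its values were seen, rose by 1.15 under GADD45G (adjusted p = 5.37e-09) and by 0.64 under shGADD45G (adjusted p = 0.0113). The second of these calls was lost without any 1 of the shLuc replicates (adjusted p = 0.0527, 0.0668 and 0.0682).

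**Figure D4:**
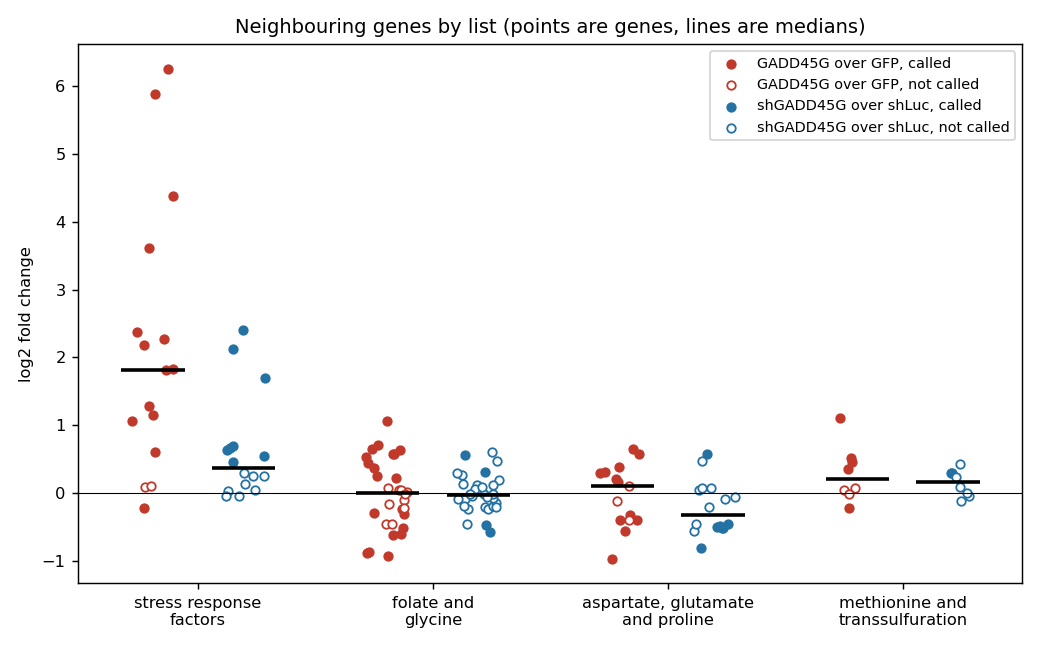
Log2 fold change (vertical axis) of every tested gene of 4 lists around the enzymes, with points for genes, filled where called at an adjusted p under 0.05, and lines for list medians, for GADD45G over GFP beside shGADD45G over shLuc. The stress response factors have medians of 1.82 for GADD45G over GFP and 0.37 for shGADD45G over shLuc, and the other lists lie on both sides of 0.

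The genes whose pattern over the 12 libraries was closest to Asns and to Mthfd2 were found among 12626 protein-coding genes by the root mean square difference of centred log2 CPM, a descriptive measure over libraries that share depth and scaling. Nearest to Asns were Trim66 at 0.19, the cationic amino acid transporter Slc7a1 at 0.2, the stress factor Ddit3 at 0.21, Cyb5r2 at 0.21 and the lipoprotein receptor Vldlr at 0.22. Their log2 fold changes under GADD45G were 2.82, 2.34, 1.83, 4.04 and 2.33 in that order, against 1.95 for Asns. Under shGADD45G they were 1.6, 1.25, 0.7, 1.84 and 1.35, against 1.23 for Asns. A pseudocount of 0.5 CPM shrinks the changes of low genes in this measure, so a small distance need not mean equal fold changes. Nearest to Mthfd2 were the large neutral amino acid transporter Slc7a5 at 0.22, Slc7a1 at 0.27, the heme oxygenase Hmox1 at 0.29, Atf5 at 0.33 and Sema3f at 0.33. Asns and Mthfd2 were chosen for being higher in both experiments. That the genes picked as nearest to them are higher too follows from that choice and is not a separate result. Among the members themselves Pycr1 was nearest to both, at 0.24 from Asns and 0.44 from Mthfd2. Phgdh was the most distant from both, at 1.06 and 1.2.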

How the data were processed

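RNA-seq counts came from 12 libraries in 4 groups of 3, with groups taken from the labels. Columns named shCtrl were read as the shLuc libraries, since no other control is in that table. Each experiment has 1 deposited table. Per the file headers these hold read counts, FPKM (counts scaled for gene length and library total), size-factor normalised signal, and the authors' own log2 fold changes and p-values, used only where named. Per the submitters' processing notes, reads were aligned with STAR 2.5 to mm10, counted with HTSeq 0.6.1 and compared with DESeq2. The deposited signal columns were not used.

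Counts were fitted within each experiment's 6 libraries with edgeR 4.0.16 in R 4.3.3 (TMM factors, filterByExpr, quasi-likelihood test). P-values were adjusted by Benjamini-Hochberg over all genes tested, and genes under 0.05 were called. Counts of both tables were joined by gene ID for the difference of effects, the joint levels and the pattern search, which used a pseudocount of 0.5 CPM and genes averaging at least 1 CPM. Total counts of 15626655 to 20756461 limit the precision of low genes such as Pycr1, with 176 counts over the GFP libraries. The steps were tested on simulated data with the same spread setting for all genes and libraries. Such data do not hold the uneven spread between replicates seen here.

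The members and gene lists were chosen with earlier results of these data known. The text names all members, Gadd45g, 5 paralogs, up to 5 genes per list and experiment with the smallest p, and the 5 genes nearest to Asns and to Mthfd2, except a few not reported here. Alternatives were RLE and upper quartile factors, DESeq2 1.42.0, no filter, at least 1 CPM in at least 3 libraries, all 12 libraries in one fit, leaving out each library, and a block for the replicate number.

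Replicate numbers were not taken as pairs. Whether same-numbered libraries belong together is not in the labels, and low correlations between them cannot exclude it. Promoter sequences are RefSeq's, GRCm38.p6, matched by symbol for 9 of 10 members, and all 10 members had the deposited coordinates in the GENCODE annotation.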

Additional observations from a re-analysis of the deposited data

How the results depend on the processing

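The count of the 8 tested members called stayed between 6 and 8 in the overexpression experiment, beside 7, under every alternative run. In the knockdown experiment it was 3 and ranged from 0 to 4 when 1 library was left out. Leaving out 1 library gave 1 to 8 calls in the folate and glycine list, beside 4, and 2 to 9 in the aspartate, glutamate and proline list, beside 7. It gave 0 to 3 in the methionine and transsulfuration list, beside 2, and 5 to 10 among the stress response factors, beside 8. Without a shLuc library 3.53% to 4.03% of all genes were called, beside 10.4%, and the cause was not tested. The methionine list had 1 call with RLE factors, 1 with upper quartile factors and 1 without a filter on low counts.

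Fold changes near 0 in the knockdown experiment turned their sign. With 1 library left out they ran from 0 (without shGADD45G replicate 2) to 0.16 for Phgdh, from -0.16 to 0.04 (without shGADD45G replicate 1) for Psat1 and from -0.09 to 0.04 for Psph. Psph was 0.01 without shGADD45G replicate 1, 0.01 without shGADD45G replicate 3 and 0.04 without shLuc replicate 1. With all 12 libraries in one fit, Psat1 lost its call in the overexpression experiment (0.18, adjusted p = 0.0922 in edgeR) and Aldh1l2 gained one in the knockdown experiment (0.49, 0.0338). Of 328 values of the 8 tested members under an alternative, 303 kept their direction and their side of the threshold.

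The numbers were not taken as pairs because the labels do not pair them. Same-numbered libraries correlated by -0.02, -0.01 and 0.01 (GADD45G with GFP) and -0.02, 0.1 and 0.06 (shGADD45G with shLuc). Differently numbered libraries correlated by -0.02 to 0.03 and by -0.09 to 0.02. These are correlations of deviations from means of only 3 libraries, so they cannot decide whether the libraries belong together. With the replicate number as a block, 7 tested members were called in the overexpression experiment and 3 in the knockdown experiment, 3 effects differed between the experiments, and the methionine list had 0 calls in the knockdown experiment. Depth limits the low members: Pycr1 rests on 176 counts over the GFP libraries and Mthfd1l on 258 over the shLuc libraries.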
